A study of Mus musculus with 106 samples.

Results

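Perigonadal visceral adipose tissue (pgVAT), the fat pad that lies along the epididymis of the male mouse, was compared between mice exposed to 10 °C and mice kept at 22 °C by RNA sequencing. The comparison used 6 of the 106 libraries of the series, 3 per temperature, taken by their tissue and temperature labels from a raw count table of 8 tissues. All animals were male wild-type C57BL/6J mice, an inbred laboratory strain. They were 8 weeks old at the start and, by the labels, 11 weeks old at sampling. The cold group was stepped down, first to 18 °C and then to 14 °C for 5 days each, before 2 weeks at 10 °C. Mice of both groups were housed 2 per cage without nesting material, and each library was made from a pool of 2 mice, so that 6 mice stand behind each group and the spread given here is that between pools. The treatment text of the labels gives 34 °C for these samples, whereas their titles mark them as cold exposed or at room temperature, and the titles were followed. Libraries are named by temperature and replicate number, and each set of 3 values is in the order of replicates 1, 2 and 3.

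White fat stores triglyceride in adipocytes, and the pad also holds fibroblast progenitors, vessels, immune cells and a covering of mesothelium. In the cold it supplies fatty acids to brown fat and muscle, and its adipocytes can also raise the synthesis of new fatty acids and sterols, whose genes are largely transcribed under the sterol regulatory element binding proteins (SREBPs). Inguinal subcutaneous fat (ingSAT) is known for the appearance of beige adipocytes that express the uncoupling protein Ucp1, a change for which perigonadal fat is known to be poor. The epididymis, in which sperm mature, secretes beta-defensins, lipocalins and cysteine-rich secretory proteins, and its duct touches the fat pad along its whole length. In bulk tissue, a change in the number of cells of a type and a change in RNA per cell cannot be told apart.

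The libraries held 23789328, 7607873 and 4262403 counts at 22 °C and 19137525, 15876503 and 14428541 counts at 10 °C, and no pair of libraries was identical. Expression is given as CPM, the count of a gene scaled to a common library total, after TMM scaling unless raw CPM is named. Summed over 14 adipocyte markers, among them Adipoq, Plin1, Fabp4 and Lpl, the libraries held 52101, 66502 and 46125 CPM at 22 °C and 26690, 70029 and 21171 CPM at 10 °C. Adipoq, the hormone adiponectin that marks fat cells, was at 3926, 5018 and 3053 CPM at 22 °C and 2377, 5126 and 1750.1 CPM at 10 °C. Every library thus carried the markers of fat, with the lowest sums in 10 °C replicates 1 and 3. A list of 62 epididymis genes, of which 61 passed the filter, summed to 4335, 2442 and 2758 CPM at 22 °C and to 55463, 757 and 80578 CPM at 10 °C. 10 °C replicates 1 and 3 stood far above every other library, and 10 °C replicate 2 was below all 3 at 22 °C. In raw CPM the same genes summed to 117.9 to 1569 in the 42 libraries of the 7 other tissues of the table and to 547.1 to 786.6 in the 6 of ingSAT, against 677.3 in 10 °C replicate 2. On log2(CPM + 1) over the genes tested, 10 °C replicates 1 and 3 correlated at 0.95 with each other, at 0.82 and 0.806 with 10 °C replicate 2, and at 0.844 to 0.882 with the libraries at 22 °C. 10 °C replicate 2 correlated at 0.916 to 0.958 with the libraries at 22 °C, which correlated at 0.934 to 0.972 among themselves. The 3 libraries at 10 °C therefore did not form a group of like samples. Results are given from all 6 libraries and beside them from 10 °C replicate 2 alone against the 3 libraries at 22 °C, a fit in which the lone library is assumed to vary like those at 22 °C.

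**Figure D1:**
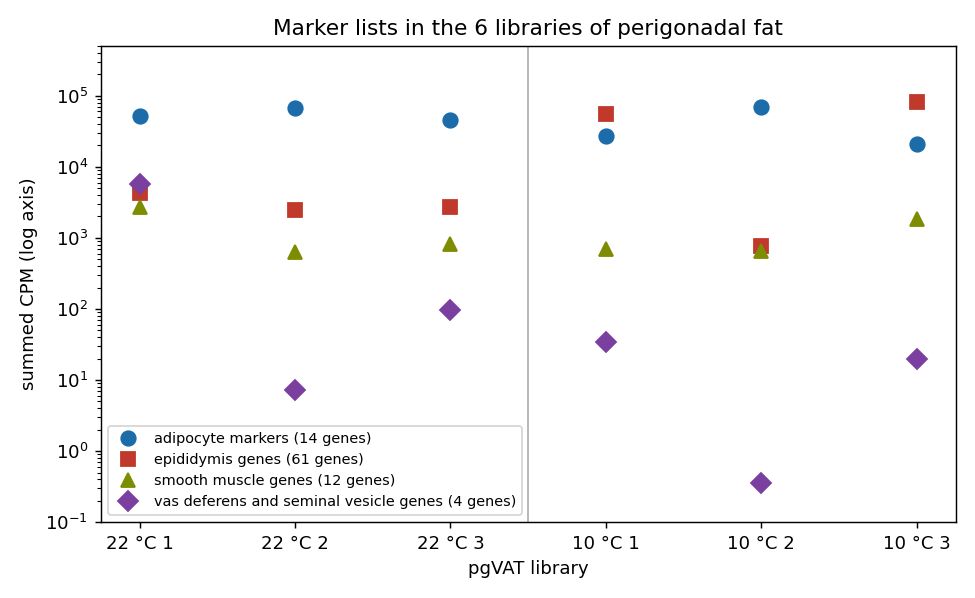
Summed TMM-scaled CPM (log axis) of 4 marker lists in each of the 6 pgVAT libraries, 1 point per list and library. Epididymis genes stand at 55463 and 80578 CPM in 10 °C replicates 1 and 3 and at 757 to 4335 CPM in the other 4 libraries, while adipocyte markers are lowest in those same 2 libraries.

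The epididymis genes that separate the libraries are secreted proteins of the duct. Crisp4, a cysteine-rich secretory protein that coats maturing sperm, was at 3.52, 5.82 and 6.73 CPM at 22 °C and 342, 0.0704 and 175 CPM at 10 °C. The lipocalin gene Lcn5 was at 0.736, 1.25 and 126 CPM at 22 °C and 3741, 0.493 and 4439 CPM at 10 °C. Lcn10, another lipocalin of the same chromosome 2 cluster, was at 0.0409, 2.08 and 18.9 CPM at 22 °C and 241, 0.141 and 766 CPM at 10 °C. The beta-defensin gene Defb47 was at 0.736, 0.555 and 9.56 CPM at 22 °C and 315, 0 and 225 CPM at 10 °C, and Wfdc10, a secreted protease inhibitor gene, at 7.03, 31.5 and 16.7 CPM at 22 °C and 314, 0 and 699 CPM at 10 °C. Each of these 5 genes was lowest or next to lowest in 10 °C replicate 2, so that the groups overlap, and Lcn5, Lcn10 and Wfdc10 missed the call. Bsph1, a binder of sperm protein, was at 0 in 10 °C replicate 2 and in 22 °C replicates 1 and 2, at 2.17 CPM in 22 °C replicate 3, and at 164 and 40.3 CPM in 10 °C replicates 1 and 3. Clu, which encodes clusterin and is expressed in many tissues as well as in the epididymis, was at 119, 86.8 and 202 CPM at 22 °C and at 637 and 6400.4 CPM in 10 °C replicates 1 and 3, with 10 °C replicate 2 inside the range at 22 °C. Without 10 °C replicate 3 its log2 fold change went from 4.13 to 1.45. Of the 61 genes tested, 25 were called higher and none lower, no gene had groups that did not overlap, and the median log2 fold change was 5.35. A member near 0 at 22 °C, such as Bsph1, could pass the filter only through 10 °C replicates 1 and 3. The calls and the median therefore describe these libraries and are no support for an effect of temperature. With 10 °C replicate 2 alone the median was -6.37, with 29 of 56 genes called lower. The count of 25 fell to 0 without 22 °C replicate 1, to 0 without 22 °C replicate 2, to 2 without 10 °C replicate 1 and to 3 without 10 °C replicate 3, and was 58 without 10 °C replicate 2.

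Genes that other tissues hardly express were also picked without any list of names. Of the genes tested, 65 had a mean under 0.1 raw CPM in each of the 7 other tissues. In 53 of them 10 °C replicates 1 and 3 were both above every library at 22 °C, and in 50 of them 10 °C replicate 2 was below every library at 22 °C, with 51 at 0 counts in it. A gene near 0 at 22 °C could pass the filter on low values only through the libraries at 10 °C in which it was high, so these counts describe the genes and are no support for a difference. By mean level the highest 10 were Wfdc10, Lcn10, Defb28, Wfdc8, Defb47, Crisp4, Defb22, Defb21, Lcn6 and Clpsl2, all of them known from the epididymis or members of its defensin, lipocalin and protease inhibitor families. Of 4 vas deferens and seminal vesicle genes tested, 3 had a positive and 1 a negative log2 fold change, and only the latter was called. This gene, Akr1b7, an aldose reductase of the vas deferens, was at 5674 CPM in 22 °C replicate 1, at 3.19 and 89.9 CPM in 22 °C replicates 2 and 3, and at 5.16, 0.352 and 4.32 CPM at 10 °C. It was called lower (log2 fold change -9.19) although the groups overlap, and without 22 °C replicate 1 its log2 fold change was -3.81. Prostaglandin synthase Ptgs2, which lies outside the rule for named genes and was chosen after its values were seen, had a like pattern, at 725, 3.33 and 15.6 CPM at 22 °C and 6.86, 3.17 and 5.59 CPM at 10 °C, and its log2 fold change was -5.57 from all libraries and -0.85 without 22 °C replicate 1. Of 21 testis germ cell genes tested, none was called, but their level was uneven between libraries. They summed to 101, 140 and 437 CPM at 22 °C and to 432, 85.9 and 356 CPM at 10 °C. The median log2 fold change was 0.39 from all libraries and -5.59 with 10 °C replicate 2 alone. In raw CPM the sum reached 476.5 in pgVAT, in 22 °C replicate 3, and at most 200.6 in the other tissues.

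Over all 14856 genes tested, 663 were called higher at 10 °C (4.46%) and 516 lower (3.47%), a call being a change over 1.5-fold with a p, before adjustment, of 0.05 or less in edgeR's quasi-likelihood test. No gene passed an adjusted p of 0.05 in this test. For the 1179 genes called it lay between 0.42 and 0.593, and 1207 genes had an unadjusted p under 0.05 at any fold. At the same adjusted threshold edgeR's exact test called 37 genes and DESeq2 called 157. Of the 663 genes called higher, 439 were above every library at 22 °C in 10 °C replicates 1 and 3 but not in replicate 2, 340 were below the mean at 22 °C in replicate 2, and 193 were below every library at 22 °C in it. Among the genes called lower, in contrast, 459 of 516 had all 3 libraries at 10 °C below all 3 at 22 °C (3.09% of the genes tested). Only 221 genes called higher had groups that did not overlap (1.49%). Counting only the 13396 genes that ingSAT also expressed at a mean of 1 raw CPM or more at 22 °C left 508 higher (3.79%) and 483 lower (3.61%). With 10 °C replicate 2 alone, 393 of 14597 genes were called higher (2.69%) and 897 lower (6.15%). Of the genes called from all 6 libraries, 69 higher and 104 lower were called the same way with that library alone. The higher count depended on every library, at 249, 164 and 304 without 22 °C replicates 1, 2 and 3 and at 371, 1935 and 161 without 10 °C replicates 1, 2 and 3. The lower count was 239 without 22 °C replicate 3 and 305, 1581 and 229 without 10 °C replicates 1, 2 and 3. The gene lists of this report were chosen with earlier results of these data known. Their counts stand beside the shares over all genes given here and are no independent support for a change.

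**Figure D2:**
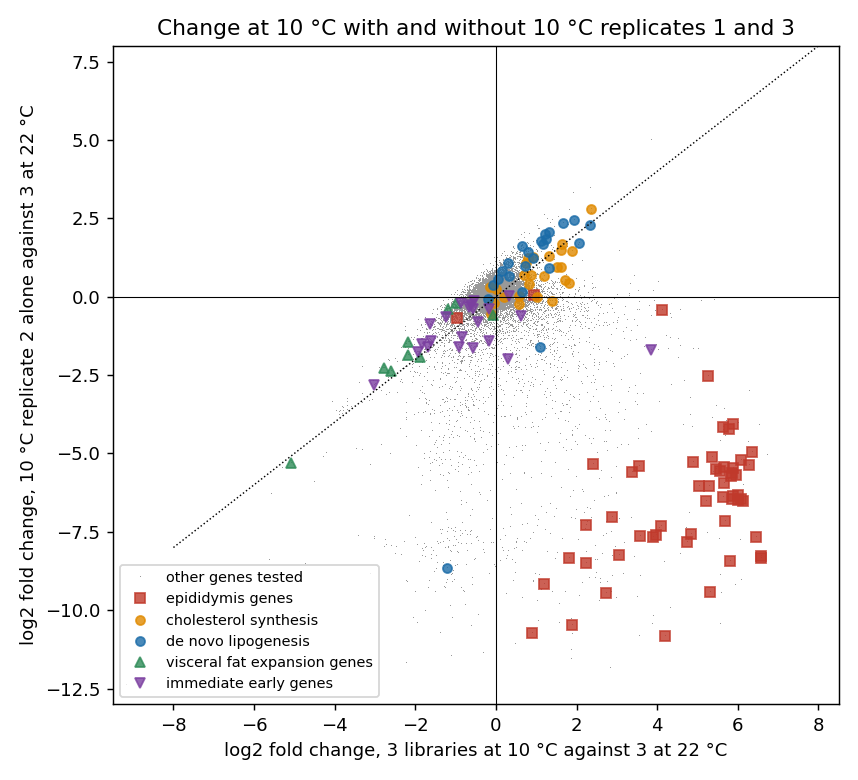
Each point is a gene, with its log2 fold change (10 °C against 22 °C) from all 6 libraries on the horizontal axis and from 10 °C replicate 2 alone against the 3 libraries at 22 °C on the vertical axis. The dotted line marks equal values, and genes without a fit in the second analysis are not drawn. Epididymis genes lie high on the first axis (median 5.35) and low on the second (median -6.37), whereas sterol, lipogenic and fat expansion genes lie on the same side of 0 on both axes for most of their members.

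Genes of cholesterol synthesis rose together. Of 25 genes tested, 15 were called higher and none lower, 13 of the 15 had groups that did not overlap, and the median log2 fold change was 0.91, against 0.03 over all genes tested. With 10 °C replicate 2 alone, 11 were called higher and the median was 0.66. The count ranged from 10 without 22 °C replicate 3 to 16 without 10 °C replicate 2, and 10 genes were called whichever library was left out, among them Acat2, Cyp51, Fdps, Insig1, Lss, Msmo1, Mvd, Nsdhl and Tm7sf2.

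Insig1 (mm10 chr5:28071363-28078662), which encodes the endoplasmic reticulum protein that holds back SREBP processing and is itself an SREBP target, was at 114, 109 and 93.6 CPM at 22 °C and 471, 728 and 416 CPM at 10 °C. It rose most in this list (log2 fold change 2.35, SE 0.34, edgeR adjusted p = 0.436), and by 2.81 with 10 °C replicate 2 alone. All 3 libraries at 10 °C were above all 3 at 22 °C, and 10 °C replicate 2 was the highest.

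The enzymes of the pathway can be followed from its start. Hmgcs1, which makes HMG-CoA, was at 202, 125 and 160.1 CPM at 22 °C and 239, 381 and 229 CPM at 10 °C and rose by 0.80 on the log2 scale (SE 0.33). It was not called without any 1 of the libraries at 22 °C or without 10 °C replicate 2, where it was at 0.51. Mvd (chr8:122433601-122443422), which decarboxylates mevalonate diphosphate, was at 9.16, 6.93 and 5.21 CPM at 22 °C and 21.8, 19.7 and 38.1 CPM at 10 °C and rose (log2 fold change 1.88, SE 0.36). Fdps, which makes farnesyl diphosphate, was at 24.6, 15.4 and 13.5 CPM at 22 °C and 57.7, 26 and 92.6 CPM at 10 °C. Its log2 fold change was 1.71 from all libraries (SE 0.48) and 0.54 with 10 °C replicate 2 alone.

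Genes of the late steps rose too. The lanosterol demethylase Cyp51 (chr5:4081145-4104746) was at 66.3, 46 and 31.9 CPM at 22 °C and 124, 154 and 171 CPM at 10 °C and rose (log2 fold change 1.63, SE 0.32), by 1.69 with 10 °C replicate 2 alone. Nsdhl, a sterol dehydrogenase, was at 31.9, 27.4 and 17.6 CPM at 22 °C and 71.2, 49.7 and 117 CPM at 10 °C and rose (log2 fold change 1.62, SE 0.38). The sterol reductase gene Tm7sf2 was at 15.4, 9.43 and 9.77 CPM at 22 °C and 40.8, 15.7 and 66.9 CPM at 10 °C and rose (log2 fold change 1.82, SE 0.52), but in 10 °C replicate 2 it was just above 22 °C replicate 1, the highest of its group. Dhcr7, which catalyses a last step of the pathway, was not called, at 7.69, 7.21 and 9.56 CPM at 22 °C and 9.05, 8.02 and 10.8 CPM at 10 °C.

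The windows upstream of these genes are shown because their members moved together and the pathway is known for SREBP sites that lie beside CCAAT boxes, which bind the factor NF-Y. RefSeq windows of 250 bases before the transcription start (GRCm38.p6) were at hand for 10 of the 15 called sterol genes, in 11 windows. Starts and distances are those of RefSeq. The windows of Insig1 and Cyp51 run into the gene spans given above, which come from another annotation, and the CCAAT box of Cyp51 lies inside its span. The letters CCAAT, on either strand, were in 9 of the 11 (81.8%), against 33.8% of the 32851 windows of all genes. The sterol regulatory element letters TCACNCCAC were in 1 of the 11 (9.09%), that of Hmgcs1, against 1.05% of all windows, and the E-box letters CACGTG in 1 (9.09%), that of Insig1, against 6.02%. Overlap between motifs was allowed. Capitals mark the matches in the stretches below, and the reverse of CCAAT reads ATTGG.
Hmgcs1 (chr13:119690151-119690350, plus strand): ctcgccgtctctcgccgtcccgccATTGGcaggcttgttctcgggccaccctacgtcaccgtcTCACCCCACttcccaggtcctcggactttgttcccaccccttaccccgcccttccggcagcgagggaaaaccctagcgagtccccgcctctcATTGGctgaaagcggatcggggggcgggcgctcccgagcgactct
Mvd (chr8:122443423-122443522, minus strand): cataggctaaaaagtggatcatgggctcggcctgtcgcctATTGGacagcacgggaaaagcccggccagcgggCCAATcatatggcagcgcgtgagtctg
Cyp51 (chr5:4104698-4104797, minus strand): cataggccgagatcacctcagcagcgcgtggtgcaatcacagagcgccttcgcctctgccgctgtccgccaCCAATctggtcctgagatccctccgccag
Insig1 (chr5:28071162-28071411, plus strand): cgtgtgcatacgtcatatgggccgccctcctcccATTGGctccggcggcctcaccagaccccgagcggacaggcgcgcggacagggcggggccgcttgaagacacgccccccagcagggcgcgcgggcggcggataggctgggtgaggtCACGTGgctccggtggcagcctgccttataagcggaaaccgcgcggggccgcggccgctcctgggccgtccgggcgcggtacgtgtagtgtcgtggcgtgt
In Hmgcs1 the sterol element lies 137 to 129 bases before the start, between CCAAT boxes at 176 to 172 and 45 to 41. Mvd has boxes at 60 to 56 and 27 to 23 bases, Cyp51 at 29 to 25 and Insig1 at 216 to 212, with the E-box of Insig1 at 101 to 96. Among the lipogenic genes described next, 5 of 10 windows held CCAAT (50%), 2 held CACGTG (20%) and none held TCACNCCAC. These are matches of letters, and no binding was measured.

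De novo lipogenesis, the making of fatty acids from glucose carbon, rose as well. Of 23 genes tested, 11 were called higher and none lower, the groups of all 11 did not overlap, and the median log2 fold change was 0.92. With 10 °C replicate 2 alone, 14 were called higher and 1 lower, with a median of 1.25. The count was 6 without 22 °C replicate 1, 3 without replicate 2, 3 without replicate 3 and 7 without 10 °C replicate 2, and Acly, Acss2 and Elovl6 were called in every case. The call for the group as a whole is therefore less firm than that for sterol genes, although the direction was shared by 20 of the 23 members.

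Acly (chr11:100476353-100528000), which splits citrate into the acetyl-CoA used for synthesis, was at 725, 408 and 639 CPM at 22 °C and 2527, 2872 and 3519 CPM at 10 °C. It rose in every library (log2 fold change 2.33, SE 0.44), and by 2.30 with 10 °C replicate 2 alone. Acss2, which makes acetyl-CoA from acetate, was at 134, 98 and 112 CPM at 22 °C and 314, 613 and 401 CPM at 10 °C and rose (log2 fold change 1.95, SE 0.35). Elovl6 (chr3:129532355-129638495), the elongase that extends palmitate, was at 54.9, 48.8 and 121 CPM at 22 °C and 270.4, 239 and 432 CPM at 10 °C and rose (log2 fold change 2.07, SE 0.45).

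The carboxylase and the synthase themselves were more uneven. Acaca, the acetyl-CoA carboxylase of the cytosol, was at 513, 354 and 365 CPM at 22 °C and 621, 1696 and 770.1 CPM at 10 °C, and Fasn, fatty acid synthase, at 5211, 3224 and 3929 CPM at 22 °C and 6835, 20769 and 11557 CPM at 10 °C. Both were highest in 10 °C replicate 2, and both rose (Acaca by 1.32, SE 0.48, and Fasn by 1.66, SE 0.62). The call for each was lost when any 1 library at 22 °C was left out, at 1.22 to 1.52 for Acaca and 1.51 to 1.87 for Fasn, and that for Acaca also without 10 °C replicate 2, at 0.75. Thrsp, a lipogenic regulator, rose by 1.11 (SE 0.47), from 1097, 1161 and 889 to 1786, 3505 and 1499 CPM. The desaturase gene Scd2 was at 478, 354 and 187 CPM at 22 °C and 627, 639.8 and 1275 CPM at 10 °C and rose by 1.32 (SE 0.49). Thrsp was not called without any 1 library at 22 °C or without 10 °C replicate 2 (0.64), nor was Scd2 without 22 °C replicate 2 or 3 or 10 °C replicate 3. Scd1, the main desaturase of white fat, lies outside the rule for named genes and was looked up after its values were known. At 34794, 33672 and 35465 CPM at 22 °C and 27288, 72696 and 28741 CPM at 10 °C it was lower in 10 °C replicates 1 and 3 than in any library at 22 °C and higher in replicate 2, and it was not called (log2 fold change 0.31, SE 0.73).

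**Figure D3:**
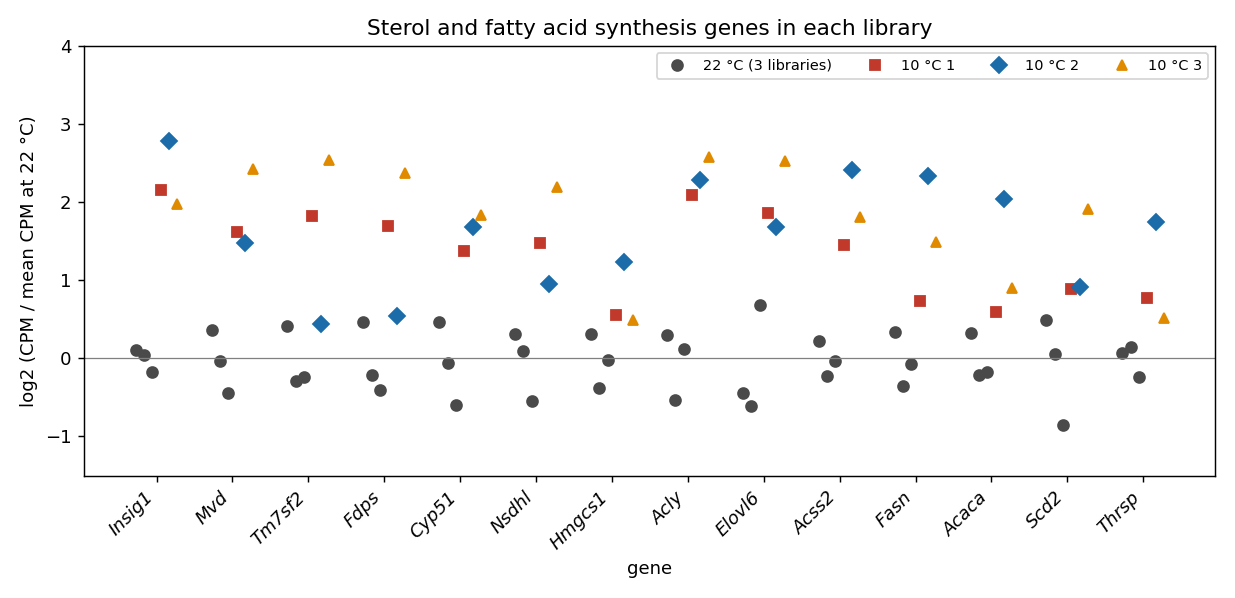
log2 of CPM over the mean CPM at 22 °C for 14 sterol and fatty acid synthesis genes, with 1 point per library, so that 0 is the mean of the 3 libraries at 22 °C. Insig1, Acly and Acss2 have all 3 libraries at 10 °C clear of those at 22 °C, while Fdps and Tm7sf2 have 10 °C replicate 2 just above the range at 22 °C.

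Fatty acid elongation and desaturation was mixed. Of 23 genes tested, 5 were called higher and 1 lower (median 0.70), and with 10 °C replicate 2 alone the median was 0.14. The higher count was 2 without 22 °C replicate 2, 3 without 22 °C replicate 3, 3 without 10 °C replicate 3 and 8 without 10 °C replicate 2. Tecr, which completes each elongation cycle, was at 82.5, 82.3 and 79.1 CPM at 22 °C and 125, 169.5 and 256 CPM at 10 °C and rose (log2 fold change 1.17, SE 0.31), and Elovl5, an elongase of polyunsaturated fatty acids, was at 111, 114 and 69.7 CPM at 22 °C and 126, 385 and 173 CPM at 10 °C and rose (log2 fold change 1.21, SE 0.46). Elovl5 was not called without any 1 library at 22 °C or without 10 °C replicate 2, where its log2 fold change was 0.59. Elovl4, an elongase of very long chains, was at 0.286, 0.416 and 1.74 CPM at 22 °C and 28.1, 0.211 and 41.5 CPM at 10 °C. It was called higher, but 10 °C replicate 2 was below every library at 22 °C. Elovl2 had the same shape without a call, at 1.76, 3.47 and 6.73 CPM at 22 °C and 25.5, 0.0704 and 45 CPM at 10 °C. Elovl1 was at 28.8, 27.3 and 23.5 CPM at 22 °C and 17, 24.6 and 26.7 CPM at 10 °C, Elovl3 at 0.0409, 0.277 and 21.3 CPM at 22 °C and 0.925, 0.844 and 0.92 CPM at 10 °C and Elovl7 at 4.46, 4.16 and 3.04 CPM at 22 °C and 8.08, 2.25 and 7.29 CPM at 10 °C, and none of the 3 was called. Fads3, a member of the desaturase family, fell by 0.87 on the log2 scale (SE 0.30), from 281, 329 and 421 to 170.3, 229 and 165 CPM, and was called only without 22 °C replicate 1 or 10 °C replicate 2. Elovl4 was not called without 22 °C replicate 1 or 2 or 10 °C replicate 3.

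In other steps of lipid handling single genes were called, where 4.46% of all genes tested were called higher and 3.47% lower. Of 15 triglyceride synthesis genes 1 was called higher, Agpat2, which adds the second acyl chain to glycerol phosphate and whose loss causes lipodystrophy. It was at 366, 433 and 351 CPM at 22 °C and 734, 1170.2 and 625 CPM at 10 °C (log2 fold change 1.14, SE 0.37), and the call was lost when any 1 library at 22 °C was left out, at 1.09 to 1.22. Gpam, which adds the first chain, was not called, at 459, 411 and 384 CPM at 22 °C and 362, 878 and 356 CPM at 10 °C. Of 14 lipid uptake genes 2 were called higher, among them Angptl8, an inhibitor of lipoprotein lipase, and Lpl, that lipase itself, was not (6898, 8632 and 6399 CPM at 22 °C and 2704, 8857 and 1787 CPM at 10 °C). Neither was its endothelial anchor Gpihbp1, at 70.5, 92.9 and 63.6 CPM at 22 °C and 24.7, 133 and 54.3 CPM at 10 °C. The log2 fold change of Angptl8 was 1.03, and the call was lost without any 1 library at 22 °C or without 10 °C replicate 1, at 0.55. Of 20 genes of lipolysis and the lipid droplet none was called, and the median was -0.43 from all libraries and 0.33 with 10 °C replicate 2 alone. Pnpla2, the triglyceride lipase, was at 1150.2, 1397 and 2209 CPM at 22 °C and 568, 1966 and 518 CPM at 10 °C, and Lipe, hormone-sensitive lipase, at 1609, 1588 and 2099 CPM at 22 °C and 609.8, 1917 and 793 CPM at 10 °C. Both had 10 °C replicates 1 and 3 below every library at 22 °C and replicate 2 within the range at 22 °C, as did Plin1, the droplet coat protein (1600.5, 1707 and 2281 CPM at 22 °C and 713, 1743 and 682 CPM at 10 °C). Without 10 °C replicate 2, 11 of the 20 were called lower, together with 13 of the 14 adipocyte markers.

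Leptin fell and apelin rose among the hormones of white fat. Lep (chr6:29060220-29073877), the hormone that reports fat stores to the brain, was at 799, 1863 and 1014 CPM at 22 °C and 448, 602 and 217 CPM at 10 °C (log2 fold change -1.54, SE 0.53). All 3 libraries at 10 °C were below all 3 at 22 °C, but the call was lost without 22 °C replicate 2, 10 °C replicate 1 or 10 °C replicate 3, with log2 fold changes of -1.11, -1.58 and -1.22. Apln, a peptide that acts on vessels and heart, was at 7.81, 7.07 and 4.34 CPM at 22 °C and 11, 30.3 and 11.7 CPM at 10 °C (log2 fold change 1.44, SE 0.48), and its call was lost without 22 °C replicate 2 or 3 or 10 °C replicate 2, at 1.51, 1.25 and 0.79. The other 10 of 12 hormone genes tested were not called. Few mitochondrial genes were called, with none of 22 fatty acid oxidation genes called (median 0.02) and 1 of 75 respiratory chain subunits (median 0.02). The exception, Atp5g1, was at 4.99, 4.57 and 5.43 CPM at 22 °C and 11.5, 5.0 and 16.5 CPM at 10 °C, with 10 °C replicate 2 inside the range at 22 °C, and kept its call without that library only. With 10 °C replicate 2 alone the median was 0.55 for the fatty acid oxidation genes and 0.26 for the respiratory chain subunits, against -0.01 over all genes. Ndufa1, a subunit of complex I, was at 47.8, 71.1 and 32.4 CPM at 22 °C and 105, 64.7 and 83.1 CPM at 10 °C. Cpt1a and Cpt2, which pass fatty acids into mitochondria, were at 100.1, 76.7 and 94.3 CPM at 22 °C and 80.8, 76.9 and 235 CPM at 10 °C and at 93.2, 89.6 and 87.3 CPM at 22 °C and 55.6, 163 and 82.8 CPM at 10 °C and were not called.

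Genes known to track the expansion of white fat were lower at 10 °C. Of 9 tested, 6 were called lower and none higher, against 3.47% called lower over all genes tested. The groups of all 6 did not overlap, and the median log2 fold change was -2.18. It was -1.87 with 10 °C replicate 2 alone. The list was chosen with earlier results of these data known, so its count is no independent support. Between 5 and 7 genes were called lower whichever library was left out, and Bmp3, Mest, Nnat, Npr3 and Sfrp5 were called every time. Scaling the libraries to the adipocyte markers instead of by TMM moved the median of all genes to 0.83 and that of these genes to -1.56.

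Mest (chr6:30723547-30748465), an imprinted gene whose level follows adipocyte enlargement, was at 74.1, 38.7 and 119 CPM at 22 °C and 15.3, 20.8 and 14.4 CPM at 10 °C and fell (log2 fold change -2.19, SE 0.42). Sfrp5 (chr19:42197971-42202252), a secreted Wnt binder of adipocytes, was at 6.83, 13.9 and 94.5 CPM at 22 °C and 1.36, 0.915 and 1.06 CPM at 10 °C. It had the largest fall among genes shared with ingSAT, at a mean of at least 5 CPM, whose groups did not overlap (log2 fold change -5.07, SE 1.07). Its size rested in part on 22 °C replicate 3, without which it was -3.19. Nnat (chr2:157560078-157562522), neuronatin, an imprinted proteolipid gene, was at 772, 1163 and 1225 CPM at 22 °C and 161, 215 and 82.1 CPM at 10 °C and fell (log2 fold change -2.79, SE 0.47).

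Npr3, the receptor that clears natriuretic peptides and so dampens their lipolytic signal, was at 1023, 2019.8 and 1501 CPM at 22 °C and 227, 552 and 225 CPM at 10 °C and fell (log2 fold change -2.18, SE 0.53). Bmp3, a secreted member of the bone morphogenetic protein family, was at 71, 17.1 and 37.8 CPM at 22 °C and 5.84, 8.02 and 7.0 CPM at 10 °C and fell (log2 fold change -2.60, SE 0.51). Fgf13, an intracellular fibroblast growth factor homologue, was at 1.55, 2.5 and 8.69 CPM at 22 °C and 1.41, 1.06 and 0.849 CPM at 10 °C. Its fall (log2 fold change -1.89, SE 0.74) left 22 °C replicate 1 and 10 °C replicate 1 close together, and of the 6 it was the member whose call depended on which library was left out. It was at -0.84 without 22 °C replicate 3 and was not called then or without any 1 library at 10 °C.

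From all 6 libraries no brown or beige fat gene was called higher at 10 °C. Of 20 tested, 1 was called lower by edgeR (median -0.34). Ucp1 (chr8:83290352-83298452) was at 1.19, 3.74 and 308 CPM at 22 °C and 8.18, 2.89 and 4.6 CPM at 10 °C, so that 22 °C replicate 3 alone was high and the other 5 libraries were at 8.18 CPM or less. Cidea, a lipid droplet protein of brown fat, was at 1.76, 4.99 and 69.7 CPM at 22 °C and 4.48, 9.78 and 7.43 CPM at 10 °C, and Cox7a1, a respiratory subunit of heart and brown fat, at 2.09, 4.71 and 29.97 CPM at 22 °C and 4.28, 2.67 and 3.18 CPM at 10 °C, again highest in 22 °C replicate 3. Dio2, which activates thyroid hormone, was at 1.19, 3.33 and 6.08 CPM at 22 °C and 6.67, 9.71 and 2.26 CPM at 10 °C, and Ppargc1a, a coactivator of mitochondrial genes, at 8.96, 19.96 and 16.5 CPM at 22 °C and 13.7, 15.8 and 6.58 CPM at 10 °C. None of these 5 was called, and without 22 °C replicate 3 the log2 fold changes of Ucp1, Cidea and Cox7a1 were 1.13, 1.14 and 0.02. Tmem26, a marker of beige cells, fell from 1.8, 1.11 and 1.95 to 0.487, 0.563 and 0.849 CPM (log2 fold change -1.35, SE 0.57). Its levels were near the filter limit. Without 22 °C replicate 1 it had no fit, and the call was lost when any other 1 library was left out. Of the 20, 5 were called lower without 22 °C replicate 1 and 3 without 22 °C replicate 2, none without 22 °C replicate 3, 10 °C replicate 1 or 10 °C replicate 3, and 1 was called higher without 22 °C replicate 3 and 2 without 10 °C replicate 2. Over all genes tested 4.46% were called higher and 3.47% lower. In a list of 148 thermogenesis genes drawn from published brown fat markers and Gene Ontology, 8 of 143 tested were called higher and 6 lower (median -0.01). In a Gene Ontology list of 292 fatty acid metabolism genes, 25 of 245 tested were called higher and 8 lower (median 0.04), with 14 and 3 that did not overlap. As single libraries were left out, the thermogenesis counts ran from 3 higher (22 °C replicate 2 or 10 °C replicate 3) and 4 lower (10 °C replicate 1) to 14 and 28 (10 °C replicate 2). The fatty acid counts ran from 9 higher (22 °C replicate 2) and 2 lower (10 °C replicate 1 or 3) to 40 and 42 (10 °C replicate 2).

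Among the circadian clock genes some fell and others rose. Of 18 tested, 4 were called higher and 6 lower, the groups of all 10 did not overlap, and 5 were called higher and 7 lower with 10 °C replicate 2 alone. Without any 1 library the counts stayed between 3 and 5 higher and between 4 and 6 lower. Nr1d1 (chr11:98767932-98775333), which encodes REV-ERB alpha, a repressor of Arntl and Nfil3, was at 76.9, 79.4 and 163 CPM at 22 °C and 15.9, 20.3 and 13.2 CPM at 10 °C and fell (log2 fold change -2.69, SE 0.37, edgeR adjusted p = 0.42). Dbp and Tef, output factors that share D-box sites with their repressor Nfil3, were at 20.3, 52.4 and 65.6 CPM at 22 °C and 13.1, 7.53 and 12.3 CPM at 10 °C and at 174, 256 and 231 CPM at 22 °C and 113, 101 and 106 CPM at 10 °C, and both fell (log2 fold changes -2.06 and -1.04, SE 0.47 and 0.25). Per3, of the negative limb, was at 115, 144 and 165 CPM at 22 °C and 87.2, 57.8 and 58.2 CPM at 10 °C and fell (log2 fold change -1.06, SE 0.27), and Per1 and Per2 fell by 0.96 and 0.87 on the log2 scale. Without 22 °C replicate 3 Per1 was at -0.54 and Per2 at -0.55, and neither was called, nor was Per1 without 10 °C replicate 1 or 3 or Per2 without 22 °C replicate 2 or 10 °C replicate 2 or 3.

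Of the genes that rose, Nfil3 was at 7.12, 5.68 and 3.69 CPM at 22 °C and 14.4, 27 and 16.4 CPM at 10 °C and rose (log2 fold change 1.79, SE 0.38), and Arntl, which encodes BMAL1 of the positive limb, was at 34.9, 17.2 and 16.1 CPM at 22 °C and 42.4, 62.4 and 35.5 CPM at 10 °C and rose (log2 fold change 1.03, SE 0.38). Cry1 rose by 0.96 on the log2 scale. Arntl was not called without 22 °C replicate 2 or 3 or 10 °C replicate 2. Clock, the partner of BMAL1, was not called, at 306, 270.2 and 148 CPM at 22 °C and 257, 329 and 129.8 CPM at 10 °C. The direction was the same in 10 °C replicate 2 alone for each of the 10 (Nr1d1 -2.36, Dbp -2.57, Nfil3 2.28, Arntl 1.45). The time of day at which each pool was taken is not among the labels, and its part in these values was not tested.

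Immediate early genes, which cells switch on within minutes of a stimulus, were lower at 10 °C. Of 22 tested, 9 were called lower, 8 of them without overlap, and 1 higher, with a median of -0.65 and, with 10 °C replicate 2 alone, -1.09. With adipocyte scaling, which moves the median of all genes to 0.83, their median was 0.09, still below that of all genes. Of the 9 called lower, only Fosb (log2 fold change -2.34) kept its call under that scaling. Fos was then at -1.17 and Egr1 at -0.97. Fos (chr12:85473890-85477273), a subunit of AP-1, was at 49.8, 38 and 49.5 CPM at 22 °C and 10.5, 13.4 and 12.2 CPM at 10 °C and fell (log2 fold change -1.93, SE 0.23, edgeR adjusted p = 0.42). Fosb (chr7:19302696-19310051), of the same family, was at 14.5, 10.4 and 21.1 CPM at 22 °C and 1.95, 2.11 and 1.56 CPM at 10 °C and fell (log2 fold change -3.02, SE 0.38, edgeR adjusted p = 0.42). The 3 libraries at 10 °C lay close together for both genes. Egr1, a zinc finger factor, was at 32.6, 24.8 and 60.2 CPM at 22 °C and 12.8, 12.5 and 11 CPM at 10 °C and fell (log2 fold change -1.69, SE 0.36), and Myc, the growth regulator, fell by 1.64 on the log2 scale (SE 0.49). Egr2 was the member called higher, at 8.67, 3.74 and 10.4 CPM at 22 °C and 118, 2.32 and 208 CPM at 10 °C. In 10 °C replicate 2 it was below every library at 22 °C, and it was not called without any 1 library at 22 °C or without 10 °C replicate 3. Without any 1 library the lower count stayed between 7 and 11, and Ccl2, Dusp1, Egr1, Fos, Fosb, Myc and Zfp36 were called each time.

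Of 18 inflammation and acute phase genes tested, 4 were called lower, 3 of them chemokine genes, and 1 higher, with 7 lower without 10 °C replicate 2. Ccl2, the chemokine that draws monocytes, was at 7.03, 8.32 and 5.21 CPM at 22 °C and 2.14, 2.39 and 1.2 CPM at 10 °C and fell (log2 fold change -1.84, SE 0.43), and Ccl7, a neighbour in the same chemokine cluster, fell by 2.01 on the log2 scale (SE 0.46). Cxcl10, an interferon-induced chemokine, fell by 1.23 (SE 0.46), a call that was lost without 22 °C replicate 1 or 3 or 10 °C replicate 1 or 3, at -1.23 to -0.91. Saa3, an acute phase gene of fat, was not called, at 10.8, 8.18 and 6.52 CPM at 22 °C and 4.77, 5.84 and 0.99 CPM at 10 °C. Lcn2, the lipocalin that binds siderophores, was called higher at 24.5, 32.6 and 57.3 CPM at 22 °C and 366, 5.21 and 1932 CPM at 10 °C. Its rise was in 10 °C replicates 1 and 3 only, which also carry the epididymis lipocalins, and in replicate 2 it was below every library at 22 °C. Without 10 °C replicate 3 its log2 fold change went from 4.34 to 2.30, and it was not called then or without any 1 library at 22 °C.

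Glucocorticoid responsive genes were split. Of 14 tested, 4 were called lower and 1, Lcn2, higher. Zbtb16 was at 241, 155 and 251 CPM at 22 °C and 59.6, 169 and 50.7 CPM at 10 °C, Hif3a at 7.03, 7.21 and 15.2 CPM at 22 °C and 5.5, 3.1 and 3.33 CPM at 10 °C and the metallothionein Mt2 at 41.2, 53.4 and 51.7 CPM at 22 °C and 25.6, 19 and 35.9 CPM at 10 °C, and all 3 fell by 0.86 to 1.29 on the log2 scale. Fkbp5, a co-chaperone of the glucocorticoid receptor and a usual readout of it, was not called, at 193, 126 and 152 CPM at 22 °C and 176, 172 and 396 CPM at 10 °C. The lower count was 2 without 22 °C replicate 2, 0 without 22 °C replicate 3 and 1 without either of 10 °C replicates 1 and 3. Hif3a was at -0.84 without 22 °C replicate 3, and Zbtb16 at -1.98 without 10 °C replicate 2, the only library it could lose and stay called. Under adipocyte scaling Mt2 was at 0.11.

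**Figure D4:**
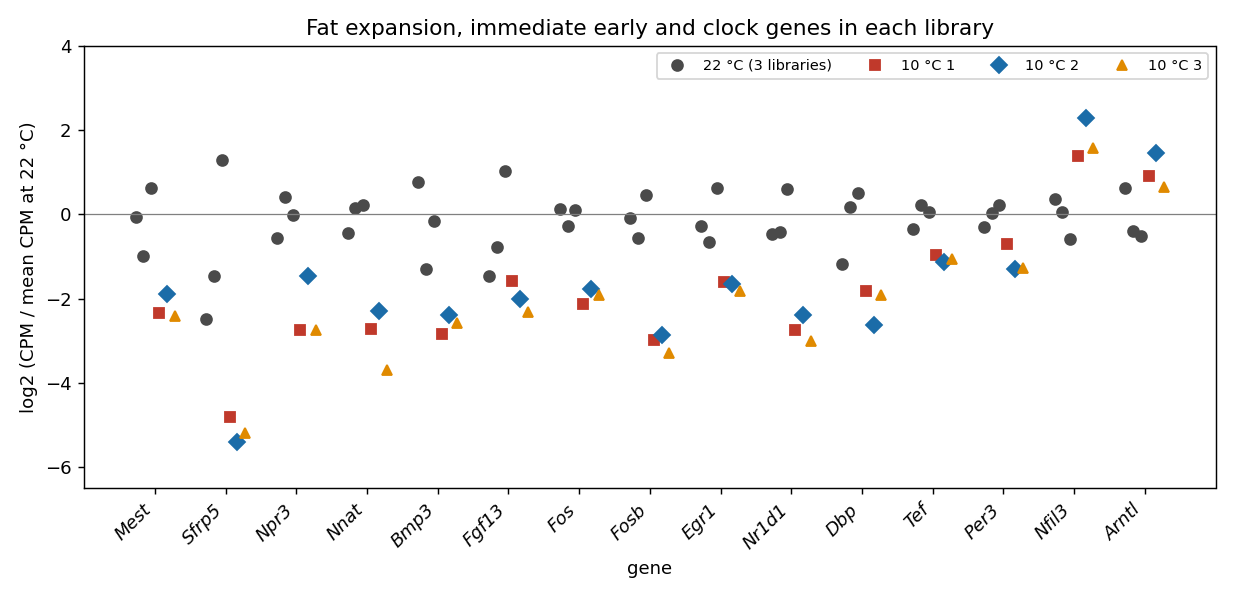
log2 of CPM over the mean CPM at 22 °C for fat expansion genes (Mest to Fgf13), immediate early genes (Fos to Egr1) and clock genes (Nr1d1 to Arntl), with 1 point per library and 0 at the mean of the 3 libraries at 22 °C. All 3 libraries at 10 °C lie below those at 22 °C for the 13 genes up to Per3 and above them for Nfil3 and Arntl, and 10 °C replicate 2 lies among the others.

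Among markers of other cell types mostly single genes were called. The counts here and below stand beside shares of 4.46% called higher and 3.47% called lower over all genes tested. Of 24 macrophage genes 1 was called lower, Lgals3, the lectin galectin-3, at 70.8, 109 and 81.9 CPM at 22 °C and 36.2, 41.2 and 37.1 CPM at 10 °C (log2 fold change -1.19, SE 0.23), and 1 higher, Cd9, with 10 °C replicate 2 inside the range at 22 °C. Without 10 °C replicate 3 the log2 fold change of Cd9 went from 1.30 to 0.58 and, as without 22 °C replicate 2 or 3, it was not called. Adgre1, the F4/80 antigen, was at 64.2, 40.5 and 36.1 CPM at 22 °C and 29.1, 61.8 and 45.9 CPM at 10 °C. Of 15 B and plasma cell genes, 5 were called lower and 1, Derl3, higher. Among the 5 were Pax5 (2.66, 2.36 and 6.73 CPM at 22 °C and 0.973, 1.2 and 0.212 CPM at 10 °C) and Blk (1.64, 1.39 and 3.04 CPM at 22 °C and 0.389, 0.563 and 0.495 CPM at 10 °C), beside Cd22 and Pou2af1, all at under 7 CPM in every library. Their lower count was 1 without 22 °C replicate 3, 2 without 10 °C replicate 1, 2 without 10 °C replicate 3 and 9 without 10 °C replicate 2. The median log2 fold change of the 15 was -0.95 from all libraries and -0.30 with 10 °C replicate 2 alone. Cd79a, of the B cell receptor, was not called, at 1.96, 1.39 and 1.95 CPM at 22 °C and 0.73, 1.27 and 0.283 CPM at 10 °C. Summed over 14 T and NK cell genes, the libraries held 42.9, 38.7 and 48.9 CPM at 22 °C and 199, 52.4 and 313 CPM at 10 °C. The gain was mostly Klrb1c, a receptor of natural killer cells, at 2.49, 1.94 and 8.69 CPM at 22 °C and 166, 3.8 and 254 CPM at 10 °C, and Zap70, a kinase of T and NK cells, at 1.19, 1.39 and 2.61 CPM at 22 °C and 7.59, 1.27 and 27.8 CPM at 10 °C, both high only in 10 °C replicates 1 and 3. Without 10 °C replicate 3 the log2 fold change of Zap70 went from 2.87 to 1.40. Cd3g, which defines T cells, was at 1.55, 2.08 and 1.09 CPM at 22 °C and 1.61, 1.55 and 0.849 CPM at 10 °C.

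Few markers of structural cells were called. Of 16 fibroblast and progenitor genes, Pdgfra, the receptor that marks adipocyte progenitors, was at 133, 83.7 and 85.4 CPM at 22 °C and 171, 164 and 346 CPM at 10 °C and rose (log2 fold change 1.17, SE 0.39), but was not called without 22 °C replicate 2 or 3, at 1.05 and 1.07. Mgp, a matrix inhibitor of calcification, was at 52.3, 51.2 and 24.1 CPM at 22 °C and 65.7, 119.98 and 153 CPM at 10 °C and rose (log2 fold change 1.40, SE 0.42), and Thbs1, thrombospondin 1, was at 98.8, 183 and 809 CPM at 22 °C and 24.3, 73.4 and 47.2 CPM at 10 °C and fell (log2 fold change -2.91, SE 0.85), by 1.53 without 22 °C replicate 3. Of 28 collagens and matrix genes, Col15a1 and Col5a3 fell by 1.21 and 1.16 on the log2 scale, and Col12a1 was called higher with 10 °C replicate 2 below every library at 22 °C (12.4, 14 and 11.9 CPM at 22 °C and 51.7, 7.67 and 123 CPM at 10 °C). It was called without 10 °C replicate 2 only, and without 10 °C replicate 3 its log2 fold change went from 2.25 to 1.23. Without the same library Pdgfra was at 0.74. Col1a1, the main fibrillar collagen, was not called, at 211, 214 and 286 CPM at 22 °C and 53.1, 184 and 362 CPM at 10 °C. Of 20 endothelial genes none was called from all libraries, whereas 14 were called higher with 10 °C replicate 2 alone, among them Pecam1 at 121, 106 and 91.4 CPM at 22 °C and 38.5, 252 and 139.9 CPM at 10 °C. Of 12 smooth muscle genes Synpo2 was called lower (248, 122 and 316 CPM at 22 °C and 36.7, 47.6 and 26.3 CPM at 10 °C), and Acta2 was at 258, 55.5 and 68.2 CPM at 22 °C and 58.7, 67.6 and 270.1 CPM at 10 °C. Of 14 skeletal muscle genes, Ckm and Casq1 were called lower with overlap (9.12, 0.693 and 22.8 CPM at 22 °C and 0.925, 0.352 and 1.63 CPM at 10 °C for Ckm), and Atp2a1, the calcium pump, was not (1.15, 2.63 and 13.5 CPM at 22 °C and 2.19, 2.11 and 0.99 CPM at 10 °C). Of 17 mesothelium genes, Upk1b and Krt7 were called higher and Igfbp5 lower, and Msln, which defines the layer, was not called (22.9, 22.3 and 18.5 CPM at 22 °C and 18.1, 37.2 and 23.6 CPM at 10 °C). Without 10 °C replicate 3 Krt7 went from 1.48 to 0.82 and Upk1b from 1.29 to 0.82 (log2 fold changes), and Krt7 and Igfbp5 were each called in 2 of the 6 fits that left out a library and Upk1b in 4. Ckm was not called without 22 °C replicate 3 or 10 °C replicate 1, and Casq1 only without 22 °C replicate 2. Only the H2-DMb2 gene among 9 MHC class II genes was called, again with 10 °C replicate 2 below every library at 22 °C, and H2-Aa was at 278, 229 and 237 CPM at 22 °C and 119.96, 355 and 175 CPM at 10 °C. None of 9 red cell genes was called.

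Few genes of other pathways changed. Of 25 genes of glucose uptake and glycolysis, Pdk1, which shuts off pyruvate oxidation, was at 67, 77.6 and 58.4 CPM at 22 °C and 142, 155 and 169.6 CPM at 10 °C and rose (log2 fold change 1.20, SE 0.22), a call that held whichever library was left out. Pfkfb3, which raises the glycolytic activator fructose-2,6-bisphosphate, was at 779, 616 and 1159 CPM at 22 °C and 243, 566 and 218 CPM at 10 °C and fell (log2 fold change -1.31, SE 0.50), a call lost without 22 °C replicate 1 or 3 or 10 °C replicate 1 or 3, at -1.37 to -1.02. Irs2, an adaptor of the insulin receptor, fell by 1.10 on the log2 scale with overlap, and, like Acad8 and Irf9 below, was called in 2 of the 6 fits that left out a library. Slc2a4, the insulin-responsive glucose transporter, was not called (176, 211 and 149.6 CPM at 22 °C and 134, 240.3 and 138 CPM at 10 °C). Among 20 genes of branched-chain amino acid breakdown Acad8 was called higher (log2 fold change 0.70), and Bcat2, the first enzyme, was at 169, 181 and 182 CPM at 22 °C and 103, 329 and 92.1 CPM at 10 °C. Of 18 heat shock and cold-inducible genes, Hspa5, the chaperone of the endoplasmic reticulum, was called higher at 440.3, 361 and 323 CPM at 22 °C and 595, 516 and 1985 CPM at 10 °C, where 10 °C replicate 3 was high and without which the log2 fold change was 0.57. Cryab, a small heat shock protein, fell (log2 fold change -1.27, SE 0.31), and the inducible Hspa1a and Hspa1b were not called (10.4, 5.55 and 3.91 CPM at 22 °C and 6.96, 6.62 and 22.1 CPM at 10 °C for Hspa1b). Of 22 interferon stimulated genes 1 was called, Irf9, at 38.5, 34 and 23.5 CPM at 22 °C and 56.5, 39.9 and 79.9 CPM at 10 °C, and of 25 cell cycle genes none, with Mki67 at 17.9, 14.1 and 13.9 CPM at 22 °C and 14.6, 25.1 and 18.2 CPM at 10 °C.

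Among genes that ingSAT also expresses, with a mean of at least 5 CPM and groups that did not overlap, the 10 with the largest rise were Galnt12, Rhbg, Hs3st3b1, 2810459M11Rik, Ldhd, Pctp, Man1a, Insig1, Acly and Hopx. Insig1 and Acly are described above. The other 8 rose mainly in 10 °C replicates 1 and 3. Galnt12, a glycosyltransferase gene, was at 2.25, 1.66 and 3.04 CPM at 22 °C and 33.3, 3.17 and 75.6 CPM at 10 °C (log2 fold change 4.03, SE 1.04), and with 10 °C replicate 2 alone its log2 fold change was 0.48. Man1a, a mannosidase of the Golgi, was at 156, 132 and 171 CPM at 22 °C and 878, 178 and 1352 CPM at 10 °C, and Ldhd, D-lactate dehydrogenase, at 49.4, 46 and 50.4 CPM at 22 °C and 309, 57.5 and 406 CPM at 10 °C. Without 10 °C replicate 3 the log2 fold change of Rhbg went from 3.42 to 2.21. With 10 °C replicate 2 alone the 8 were at 0.24 (Man1a) to 1.46 (2810459M11Rik). Such genes pass the limit of expression in ingSAT and yet share the library pattern of the epididymis genes, and what part that tissue had in them was not tested.

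The 10 with the largest fall included Sfrp5 and Fosb, described above, and Hspb7 and Ptprz1. Hspb7, a small heat shock protein of muscle, was at 8.38, 15 and 24.5 CPM at 22 °C and 2.0, 1.55 and 2.12 CPM at 10 °C and fell (log2 fold change -3.06, SE 0.47). Ptprz1, a receptor phosphatase, was at 23.2, 3.6 and 4.56 CPM at 22 °C and 1.9, 1.55 and 0.495 CPM at 10 °C (log2 fold change -3.00, SE 0.88). Without 22 °C replicate 1 the latter was not called, at -1.62. Another 5 were the predicted genes Gm10719, Gm10801, Gm10717, Gm10800 and Gm10718, whose near-identical copies share reads and whose counts are uncertain. Gm10800 was at 498, 1497 and 7742 CPM at 22 °C and 414, 276 and 4.6 CPM at 10 °C, and all 5 had their highest value in 22 °C replicate 3, the library with the fewest counts. Without it none of the 5 was called, at -2.19 to -1.95.

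A joint fit of 18 libraries of pgVAT, ingSAT and interscapular brown fat (iBAT) tested whether the change at 10 °C differed between the 2 white depots, over 14482 genes. The change was more positive in pgVAT for 1264 genes (8.73%) and more negative for 715 (4.94%) when called by the same limits of fold and p, and 23 genes passed an adjusted p of 0.05, all of them more negative in pgVAT. The count of 1979 was 3556 without pgVAT 10 °C replicate 2 and 1111 without pgVAT 10 °C replicate 3. Differences are those of the joint fit and can depart slightly from the subtraction of the changes fitted in each depot.

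Thermogenic and mitochondrial genes set the depots apart. In ingSAT, Ucp1 was at 13.9, 6.08 and 2.31 CPM at 22 °C and 1034, 1440 and 1148 CPM at 10 °C, and in iBAT at 6568, 4992 and 10280 and 11420, 16100 and 13210 CPM. The difference of its log2 changes, pgVAT minus ingSAT, was -11.64, SE 2.07, edgeR adjusted p = 0.0406. Without pgVAT 22 °C replicate 3, the library in which Ucp1 was high, the change in pgVAT alone was 1.13 and the difference was -6.11 (edgeR adjusted p = 0.0197), and with any 1 of the other libraries of the 2 depots left out the adjusted p lay between 0.00475 and 0.157. Elovl3, an elongase induced in brown fat by cold, was at 1.19, 0.634 and 0.121 CPM at 22 °C and 111, 153 and 115 CPM at 10 °C in ingSAT, with a difference of -10.42, SE 1.76, edgeR adjusted p = 0.028. Acot11, a thioesterase of brown fat, differed by -6.55 (edgeR adjusted p = 0.0221), and Cox7a1 by -5.71 (edgeR adjusted p = 0.0241). Without pgVAT 22 °C replicate 3 the differences were -4.60 for Elovl3 (edgeR adjusted p = 0.205), -4.88 for Acot11 (edgeR adjusted p = 0.00182) and -3.87 for Cox7a1 (edgeR adjusted p = 0.0012). With any other 1 library left out the edgeR adjusted p reached 0.121 for Elovl3, 0.0785 for Acot11 and 0.0855 for Cox7a1. Of the 20 brown and beige fat genes, 13 changed more negatively in pgVAT and 1 more positively at the unadjusted limit, and their median change was -0.34 in pgVAT, 2.35 in ingSAT and -0.10 in iBAT. For 75 respiratory chain subunits 56 differed, all more negative in pgVAT, with medians of 0.02 in pgVAT and 0.95 in ingSAT. The median in pgVAT was 0.26 with 10 °C replicate 2 alone. Of 22 fatty acid oxidation genes 13 were more negative in pgVAT and 1, Cpt1a, more positive.

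The medians of sterol and lipogenic genes were above 0 in both depots. Of 24 cholesterol synthesis genes in the joint fit, 3 differed in the negative direction (12.5%, against 4.94% of all genes) and 1 in the positive, with medians of 0.91 in pgVAT and 1.09 in ingSAT. Insig1 changed by 2.35 in pgVAT and 1.83 in ingSAT, a difference of 0.51, SE 0.44, edgeR adjusted p = 0.594. Of 23 lipogenic genes 3 differed (13%), all more negative in pgVAT, with medians of 0.92 in pgVAT and 1.09 in ingSAT. These shares were above that of all genes. Acly changed by 2.33 and 1.54 (difference 0.77, SE 0.73, edgeR adjusted p = 0.631). A p above the limit does not show equal change. No clock gene differed, with Nr1d1 at -2.69 and -1.66 (difference -1.03, SE 0.50, edgeR adjusted p = 0.34), and no fat expansion gene did, with Nnat at -2.79 and -3.37 (difference 0.60, SE 0.66, edgeR adjusted p = 0.682).

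Some immediate early genes changed differently in the 2 depots. Fosb was at 13.3, 30.5 and 22.3 CPM at 22 °C and 46.3, 29.2 and 30.3 CPM at 10 °C in ingSAT, and the difference of changes was -3.67, SE 0.56, edgeR adjusted p = 0.0223. With any 1 library of the 2 depots left out it was -3.98 to -3.40, at an edgeR adjusted p of 0.00157 to 0.0785. Fos differed by -1.82, SE 0.42, edgeR adjusted p = 0.117, and Egr1 by -1.24, SE 0.41, edgeR adjusted p = 0.201, at unadjusted p only. Matrix genes differed the other way. Of 28 collagens and matrix genes 14 changed more positively in pgVAT and none more negatively, with a median of -0.15 in pgVAT and -1.61 in ingSAT. Col1a1 was at 3860, 2122 and 292 CPM at 22 °C and 312, 166 and 212 CPM at 10 °C in ingSAT, where 2 of the 3 libraries at 22 °C were high, and its difference was 2.96 (edgeR adjusted p = 0.203). Pdgfra rose in pgVAT by 1.17 and changed by -0.81 in ingSAT (difference 1.97, SE 0.45, edgeR adjusted p = 0.111), and 8 of 16 fibroblast genes changed more positively in pgVAT.

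**Figure D5:**
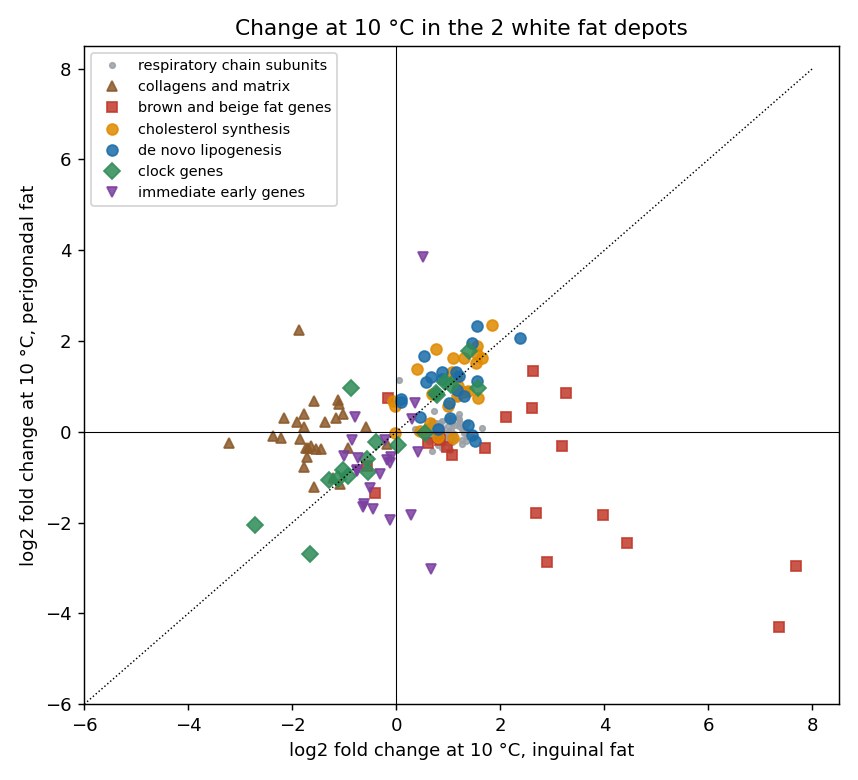
log2 fold change at 10 °C in ingSAT (horizontal axis) and in pgVAT (vertical axis) for the genes of 7 lists, each point a gene and the dotted line equal change. Sterol, lipogenic and clock genes lie near the line, brown and beige genes lie far to the right of it with Ucp1 at 7.35 and -4.30, and collagens lie to its left.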

How the data were processed

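Raw counts per gene were deposited by the authors as a table of 8 tissues. Per the study's methods and the submitters' processing notes, mRNA libraries (NEBNext Ultra) were read on a HiSeq instrument, aligned to mm10 with STAR, checked with Picard and counted with HTSeq. The strand setting is not given in the sources used here, so overlapping antisense genes cannot be told apart, and near-identical copies share reads.

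Groups came from sample titles. The filter kept genes whose average log2 CPM exceeded 0 (14856 of 21647 identifiers, 99.7% with a symbol), which were scaled by TMM and tested with the quasi-likelihood F-test of edgeR 4.0.16 (R 4.3.3), without covariates. Calls needed a change over 1.5-fold and an unadjusted p no larger than 0.05, the rule of the study, and adjusted values (Benjamini-Hochberg) are over all genes tested. SE is the size of the log2 fold change over the root of F. The difference between depots was a contrast in a joint fit of 18 libraries. Genes were named if called and among the 6 largest of a list, if defining for a list, if among the 10 largest changes without overlap or the 10 highest genes low elsewhere, or if discussed for this tissue by the study. The members and the 38 lists were chosen with earlier results of these data known. Fits were tested on simulated counts. Alternatives were DESeq2 1.42.0, edgeR's exact test, other scalings and filters, leaving out each library, 10 °C replicate 2 alone, the log of the summed epididymis genes as a covariate, and a replicate block. Scaling to adipocyte markers and the count of groups that do not overlap were added after the data were seen. The p-values measure the spread between 3 pools per temperature. Some genes that meet the rule are not reported here.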

Additional observations from a re-analysis of the deposited data

Results flagged for a closer look

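The change at 10 °C differed between pgVAT and ingSAT at an adjusted p of 0.05 in edgeR's test of the difference for 23 genes, all with a more negative change in pgVAT. For Ucp1 the difference of log2 changes was -11.6, for Elovl3 -10.4, for Acot11 -6.55 and for Cox7a1 -5.71. In pgVAT these 4 genes were highest in 22 °C replicate 3, and none was called at 10 °C. Without that library the differences were -6.11 for Ucp1, -4.60 for Elovl3, -4.88 for Acot11 and -3.87 for Cox7a1, and that of Elovl3 had an edgeR adjusted p of 0.205. For Fosb the difference was -3.67, and in pgVAT all 3 libraries at 10 °C lay below all 3 at 22 °C. Groups of 3 samples were too small for a test of outlying samples.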

How the results depend on the processing

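Of 663 genes called higher and 516 called lower, none passed an adjusted p of 0.05 in edgeR's quasi-likelihood test (0 and 0, also 0 and 0 of those shared with ingSAT). Leaving out 1 library gave 161 to 1935 higher and 229 to 1581 lower, with both upper values without 10 °C replicate 2. Of the genes shared with ingSAT (508 and 483), 145 to 1402 were then higher and 217 to 1542 lower. With the epididymis covariate 220 and 824 were called, with 10 °C replicate 2 alone 393 and 897, and with adipocyte scaling 1981 and 56. Among shared genes the covariate gave 212 higher. Groups did not overlap for 221 genes called higher, 215 of them shared. The difference from ingSAT passed for 1979 genes, for 23 after adjustment, and for 1111 (without 10 °C replicate 3) to 3556 (without 10 °C replicate 2) with 1 library left out. The other counts stayed within 1.5 times under every other alternative. The cause of these shifts was not tested.

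The replicate block lowered the genes called higher to 336 (268 shared). The samples share only a number: deviations of same-numbered libraries correlated at -0.21, 0.16 and 0.24, and 22 °C replicate 1 was closest to 10 °C replicate 2.

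Of 119 named genes called, 32 kept direction and call under every alternative and 105 kept direction. Among genes called in either fit, the sign turned against 10 °C replicate 2 alone for Elovl2 (-5.57), Gpihbp1 (0.84), Bcat2 (0.91), Col12a1 (-0.71), Egr2 (-1.69), Lcn2 (-2.83), H2-DMb2 (-0.56), Klrb1c (-0.13), Zap70 (-0.38) and Clu (-0.42), and for the epididymis genes Crisp4 (-6.02), Defb47 (-8.42), Wfdc10 (-10.83), Clpsl2 (-4.62), Defb21 (-7.67), Defb22 (-8.50), Defb28 (-8.25), Lcn6 (-4.23) and Wfdc8 (-9.93), all log2 fold changes. With the covariate it turned, by the same count, for Lcn2 (-0.59), Crisp4 (-1.51), Defb47 (-1.33), Wfdc10 (-4.18), Clpsl2 (-0.39), Defb21 (-0.30), Defb22 (-4.34), Defb28 (-3.73), Lcn6 (-0.53) and Wfdc8 (-3.10), and with adipocyte scaling for Mt2 (0.11). With 3 pools per temperature, no change of a single gene passed adjustment in edgeR's quasi-likelihood test.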

Other observations

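Outside the lists of named pathways and cell types, 76 genes with a mean of at least 5 CPM over the 6 libraries were singled out. Their groups did not overlap. Call and direction held from all 6 libraries, with the summed epididymis genes as a covariate and with 10 °C replicate 2 alone. Expression in ingSAT was not a condition. Of these, 50 were lower and 26 higher at 10 °C. Over all genes tested, 3.09% were called lower and 1.49% higher with groups that did not overlap, a rule with fewer conditions. The counts describe the pick and are no support for a change. The genes below were picked from the 76 after their values were seen. Grb14, an adaptor that inhibits the insulin receptor, was at 26.7, 52.8 and 34.1 CPM at 22 °C and 8.56, 7.46 and 6.65 CPM at 10 °C (log2 fold change -2.32, SE 0.32, edgeR adjusted p = 0.42). Sncg, gamma-synuclein of adipocytes and neurons, was at 369, 927 and 709 CPM at 22 °C and 172, 137 and 109 CPM at 10 °C (log2 fold change -2.26, SE 0.43). Amotl2, a scaffold of the Hippo pathway, was at 552, 481 and 541 CPM at 22 °C and 122, 203 and 111 CPM at 10 °C (log2 fold change -1.85, SE 0.34), and Ccn1, a secreted matrix protein, at 42.8, 31.7 and 53 CPM at 22 °C and 12.5, 20.2 and 12.1 CPM at 10 °C (log2 fold change -1.51, SE 0.31). That all 3 libraries at 10 °C lay below all 3 at 22 °C in each of the 4 follows from the rule that picked the 76.

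Among the 26 that were higher, Ptger3, the EP3 receptor for prostaglandin E, was at 46.1, 38.7 and 54.3 CPM at 22 °C and 107, 176 and 93.9 CPM at 10 °C (log2 fold change 1.44, SE 0.31). Parm1 was at 19.4, 15.4 and 20.8 CPM at 22 °C and 37.7, 37.6 and 38.7 CPM at 10 °C (log2 fold change 1.04, SE 0.21), and Prex2, an exchange factor for Rac, at 134, 103 and 110.1 CPM at 22 °C and 256, 211 and 232 CPM at 10 °C (log2 fold change 1.01, SE 0.24). Mlx, the dimer partner of the carbohydrate response factor ChREBP, was at 20.04, 21.1 and 16.9 CPM at 22 °C and 31.8, 38.4 and 32.3 CPM at 10 °C (log2 fold change 0.82, SE 0.21), and Gys2, a glycogen synthase, at 4.21, 8.73 and 6.95 CPM at 22 °C and 11, 23.5 and 14.6 CPM at 10 °C (log2 fold change 1.31, SE 0.42). Gys2 was not called without 22 °C replicate 1. None of the 9 genes named here passed an adjusted p of 0.05 in edgeR's quasi-likelihood test.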
